A study of Mus musculus with 6 samples.

Results

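The 10 genes followed here serve dietary fat and cholesterol absorption in the intestinal epithelium and were measured in mice: Cd36, Npc1l1, Fabp1, Mogat2, Dgat1, Mttp, Apob, Apoa1, Apoa4 and Apoc3. They were chosen by name, as every probe set whose platform annotation gives 1 of these symbols alone, which took 20 probe sets for 10 genes. All 10 genes were among the 8893 of 18193 genes that passed the filter on low values, a level above 5 (log2) on at least 3 of the 6 arrays, and all 10 lay above 5 on every array. The study measured total RNA of intestinal epithelial cells from mice of a mixed 129/SV and C57BL/6 background on 6 Affymetrix arrays, each a biological replicate; whether one comes from a single mouse or a pool is not stated. All mice carried floxed Pggt-Iβ, whose product (gene symbol Pggt1b) is a subunit of GGTase-I, an enzyme that attaches an isoprenoid lipid to proteins. The 3 control replicates were VillincreERT2 negative and the 3 deficient replicates VillincreERT2 positive. This transgene is a recombinase under the epithelial Villin promoter that tamoxifen activates, so the controls lacked it, and effects of the recombinase and of the deletion cannot be told apart. The treatment was 1 mg tamoxifen, injected over 3 days in a row, and cells were taken on day 6 counted from its start; whether the dose is per day or in all is not stated. The sources used here do not give age, sex, diet, fasting state or the part of the gut sampled.

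Fat absorption runs through the enterocytes of the villus. Fatty acids and monoglycerides enter at the brush border and are carried by small binding proteins to the endoplasmic reticulum. There they are joined again into triglyceride, and the triglyceride is loaded onto apolipoprotein B and coated with smaller apolipoproteins. The resulting chylomicron leaves through the Golgi towards the lymph. Cholesterol enters by its own carrier and is packed into the same particles.

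None of the 10 genes passed the test between groups, although Cd36 stood lower on every deficient array. Groups were compared with limma over all 8893 genes, a gene being called at a Benjamini-Hochberg adjusted p below 0.05, and log2 changes are deficient minus control. Of the 10 genes limma called 0, against 2.09% of all genes tested, 1.98% lower and 0.112% higher. At an unadjusted p under 0.05 there was 1, Npc1l1, which was lower, as were 11.3% of all genes tested, while 5.60% were higher. Cd36 was the 1 gene of the 10 whose groups did not overlap, lower in the deficient arrays, as were 16.7% of all genes tested. These shares give no sign that the 10 genes moved more often than other genes. By mean, 7 of the 10 were lower and 3 higher, with a median log2 change of -0.23, beside 4852 of 8893 lower and a median of -0.04 over all genes tested. Deficient replicate 1 was the lowest of the 6 arrays for 7 of the 10 genes, and without it the median was -0.01.

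**Figure D1:**
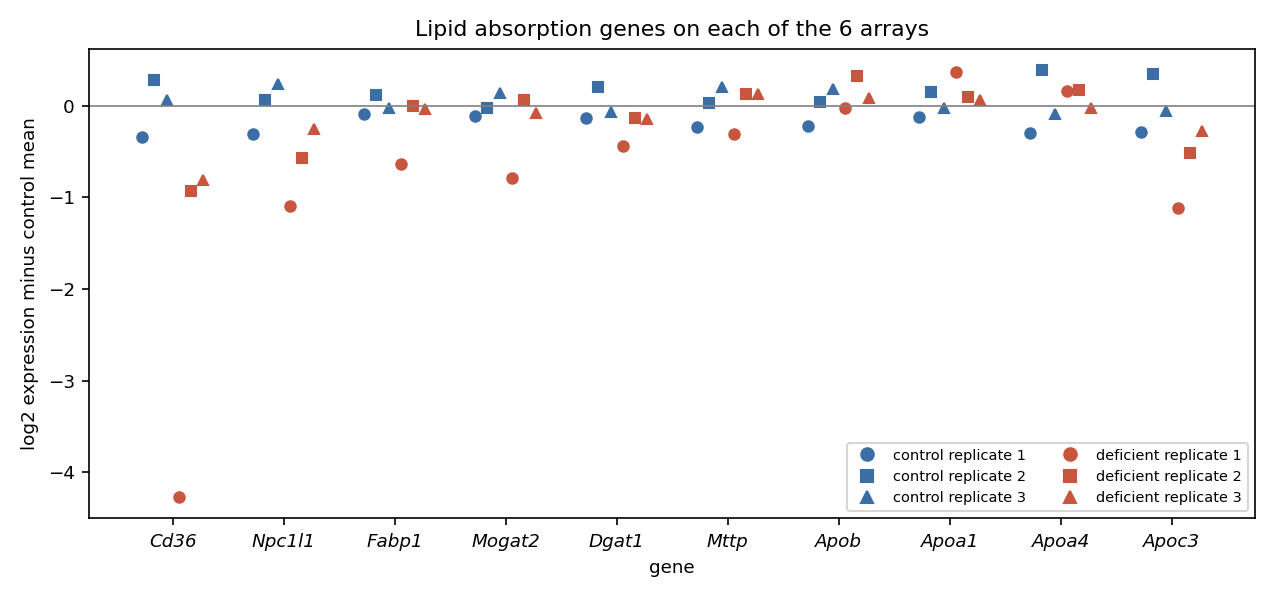
Log2 expression of each gene on each array, minus the mean of the 3 controls; blue symbols are controls, red symbols deficient arrays, and the shape gives the replicate number. Cd36 alone has all 3 deficient arrays under all 3 controls, and deficient replicate 1 is the lowest array for 7 of the 10 genes.

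The arrays were alike in their overall values: between 35.5% and 36.5% of probe sets lay above 5. The deleted gene itself was not separated. Pggt1b read 9.30, 9.55 and 9.33 in control replicates 1 to 3 and 9.75, 8.88 and 8.83 in deficient replicates 1 to 3, a log2 change of -0.24 ± 0.27 (SE, limma adjusted p = 0.678). No source used here says whether its probes lie within the deleted stretch, so this reading is no check of the deletion, and every direction rests on the labels. All 13 epithelial markers on a fixed list, Vil1 and Epcam among them, lay above 5 on all 6 arrays. Genes listed as markers of the proximal small intestine (12 of 14), the ileum (8 of 9) and the colon (9 of 11) also lay above 5 on all arrays. The ileum and colon lists share a gene, and a level above 5 does not show which segments a preparation held. The T and intraepithelial lymphocyte list stood lower in the deficient arrays, with 11 of 13 tested members called, all lower (2.09% of all genes tested were called). Its mean level relative to the controls was -4.03, -3.28 and -2.55 in deficient replicates 1 to 3.

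Cd36, a scavenger receptor that takes up long-chain fatty acids at the brush border of the proximal gut, had the largest difference of the 10 genes. Its probe set with the highest mean read 9.72, 10.34 and 10.12 (log2) in control replicates 1 to 3. In deficient replicates 1 to 3 it read 5.79, 9.13 and 9.25. All deficient arrays were below all controls, but deficient replicate 1 alone accounted for most of the distance. The group means were 10.06 ± 0.32 (SD, n = 3) and 8.06 ± 1.97 (SD, n = 3), a log2 change of -2.003 ± 0.88 (SE), or 4.01-fold lower, with a limma adjusted p of 0.310 and a 95% interval from -4.10 to 0.09. Without deficient replicate 1 the change was -0.87, with a limma adjusted p of 0.188, so the size of the difference depends on that array while its direction is the same. Leaving out each array in turn gave log2 changes from -2.60 to -0.87.

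The other Cd36 probe sets showed the same order of groups. Probe set 1450883_a_at read 9.59, 9.82 and 10.06 in controls and 6.10, 9.22 and 9.19 in deficient arrays. The third, 1450884_at, read 6.64, 7.88 and 7.09 in controls and 3.42, 5.95 and 6.35 in deficient arrays, so deficient replicate 1 fell under the level 5 there. In a fit over all 16281 probe sets above the filter, their log2 changes were -1.65 ± 0.81 (SE, limma adjusted p = 0.355) and -1.96 ± 0.76 (SE, limma adjusted p = 0.282). These 3 probe sets measure the same RNA on the same 6 arrays and are no replicates of each other. In that fit 0 of the 20 probe sets were called, where 1.44% of all probe sets were.

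**Figure D2:**
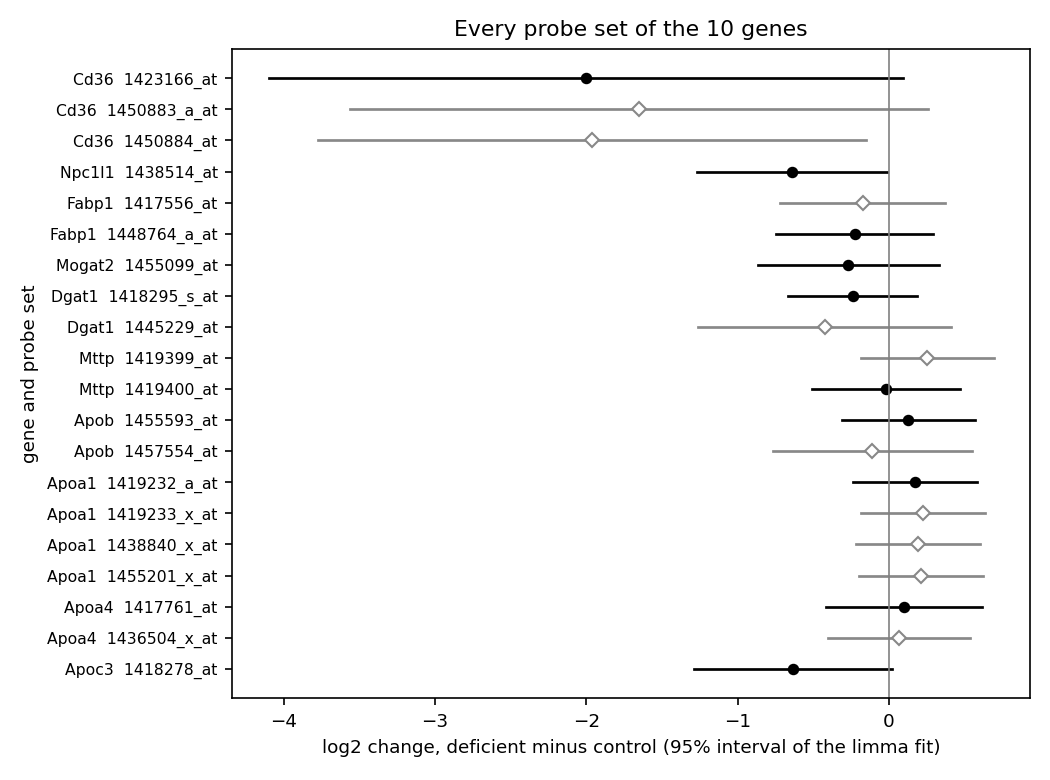
Log2 change, deficient minus control, with its 95% interval, for all 20 probe sets of the 10 genes, from the limma fit over all probe sets; filled circles are the probe sets that stand for the gene, open diamonds the others. The 3 Cd36 probe sets have the largest changes and the widest intervals, while the 4 Apoa1 probe sets lie close together above 0.

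Cd36 is also made by macrophages, capillary endothelium and fat cells, whose markers were on fixed lists. Of 13 myeloid markers, 9 were tested and 4 were called, all lower (2.09% of all genes tested were called). Their mean level over all 13 was 6.57 to 7.28 in controls and 5.36 to 6.17 in deficient arrays. Relative to controls the tested members stood at -1.51, -1.12 and -1.90 in deficient replicates 1 to 3. Of the 13, 7 lay above 5 on every array, Tyrobp and Fcer1g among them, and 3 lay under 5 on every array, Cd68 and Itgam among them. The part of myeloid cells in the Cd36 difference was not tested. The list of endothelium, stroma and muscle had 5 of 13 members above 5 on every array, Vim among them, and 7 under 5 on every array. Its endothelial markers Pecam1, Cdh5, Kdr and Vwf read between 2.04 and 2.41 on all 6 arrays. Of 4 fat cell markers on the array, 3 lay under 5 on every array, with Adipoq between 2.39 and 2.45, while Cidec lay above 5 on every array, between 8.74 and 10.06. Marker genes given here only by their level were named after their values were seen. In bulk RNA, fewer cells of a type and less RNA per cell cannot be told apart, here and for every gene below.

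Npc1l1, the brush border carrier that takes up cholesterol and plant sterols and the target of ezetimibe, was lower by mean in the deficient arrays. It read 13.43, 13.81 and 13.98 in controls and 12.64, 13.17 and 13.49 in deficient arrays. Deficient replicate 3 lay just above control replicate 1, so the groups overlapped by that single pair. The log2 change was -0.64 ± 0.26 (SE, n = 3 per group), or 1.56-fold lower, with a limma adjusted p of 0.287 and a 95% interval from -1.27 to -0.02. It was -0.41 without deficient replicate 1 and -0.83 without deficient replicate 3.

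Fabp1, the liver-type fatty acid binding protein that carries fatty acids and monoglycerides inside the enterocyte, stood apart on 1 deficient array. It read 16.15, 16.35 and 16.21 in controls and 15.60, 16.23 and 16.20 in deficient arrays. Its probe set held the highest value of the whole table on 5 of the 6 arrays, so it was measured at the upper end of the range, and whether signals are compressed there was not tested. Its log2 change was -0.23 ± 0.22 (SE, limma adjusted p = 0.612, 95% interval -0.74 to 0.29), and -0.02 without deficient replicate 1. The second probe set, 1417556_at, gave -0.17 ± 0.23 (SE).

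Promoter windows of 7 of the 10 genes were found in a RefSeq table for build GRCm38.p6, each with 250 bases before and 50 after the annotated start; Apoc3, Mogat2 and Dgat1 had no entry. They are printed here for Cd36, Npc1l1 and Fabp1, which had an entry and read furthest below the other deficient arrays in deficient replicate 1, and for Apoa1, which read highest there. The motifs were searched on both strands after the expression values were known. They were the nuclear receptor hexamer AGGTCA, its direct repeat AGGTCANAGGTCA, the HNF4 motif CAAAGTCCA, the GATA motif AGATAA, the TATA box TATAAA and the HNF1 motif GTTAAT. Capitals mark every match, and the sequences run 5′ to 3′ along the gene's strand.
Cd36 promoter, chr5:17835847-17836146, minus strand: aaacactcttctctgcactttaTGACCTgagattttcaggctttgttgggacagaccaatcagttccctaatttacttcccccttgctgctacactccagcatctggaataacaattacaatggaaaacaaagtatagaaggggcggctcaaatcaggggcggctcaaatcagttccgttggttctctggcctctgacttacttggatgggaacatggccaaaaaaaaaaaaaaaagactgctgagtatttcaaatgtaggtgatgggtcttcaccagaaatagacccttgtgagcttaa
Npc1l1 promoter, chr11:6230196-6230495, minus strand: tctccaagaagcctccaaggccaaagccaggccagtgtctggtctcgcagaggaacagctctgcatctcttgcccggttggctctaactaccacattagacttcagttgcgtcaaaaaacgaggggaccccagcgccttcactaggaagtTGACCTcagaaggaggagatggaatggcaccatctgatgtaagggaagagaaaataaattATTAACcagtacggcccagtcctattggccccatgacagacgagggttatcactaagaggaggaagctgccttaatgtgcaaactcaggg
Fabp1 promoter, chr6:71199629-71199928, plus strand: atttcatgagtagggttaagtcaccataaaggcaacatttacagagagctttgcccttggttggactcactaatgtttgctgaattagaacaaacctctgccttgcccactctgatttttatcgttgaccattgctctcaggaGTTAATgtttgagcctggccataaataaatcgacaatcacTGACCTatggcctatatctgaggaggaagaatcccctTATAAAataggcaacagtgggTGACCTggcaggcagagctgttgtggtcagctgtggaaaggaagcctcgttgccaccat
Apoa1 promoter, chr9:46228380-46228679, plus strand: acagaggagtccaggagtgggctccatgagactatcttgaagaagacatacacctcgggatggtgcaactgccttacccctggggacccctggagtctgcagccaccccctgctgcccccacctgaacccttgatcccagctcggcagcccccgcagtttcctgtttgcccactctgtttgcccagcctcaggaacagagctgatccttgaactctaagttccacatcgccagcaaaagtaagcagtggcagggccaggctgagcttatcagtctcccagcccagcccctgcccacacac

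The hexamer AGGTCA was found in 3 of the 7 windows, those of Cd36, Npc1l1 and Fabp1. It starts 228 bases before the start of Cd36, 100 before that of Npc1l1, and 67 and 9 before that of Fabp1, each time on the opposite strand and so read as TGACCT. It is held by 16.3% of all 32851 windows listed. A direct repeat of it or an HNF4 or GATA match was in none of the 7. These motifs are in 0.0396%, 0.475% and 11.2% of all windows. Only exact matches were counted, so a window without a match may still hold a variant that differs by a letter. The HNF1 motif was found in Fabp1 and Npc1l1 (7.10% of all windows) and the TATA box in Fabp1 and Apob (13.6%). The Apoa1, Apoa4 and Mttp windows held no match to any motif searched. The repeat contains the hexamer, so any match of the repeat is also a match of the hexamer. A match describes letters, not a bound site, and this window may not hold the start used in these cells.

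Neither of the enzymes that rebuild triglyceride was called, and their intervals hold changes in both directions. Mogat2 joins a fatty acid to monoglyceride, the main route in the gut, and read 12.64, 12.73 and 12.90 in controls. In deficient replicate 1 it was the lowest of the 6 arrays at 11.97, while deficient replicates 2 and 3 lay within the control range at 12.82 and 12.68. The log2 change was -0.27 ± 0.25 (SE, limma adjusted p = 0.604, 95% interval -0.86 to 0.33), and -0.01 without deficient replicate 1. Dgat1, which adds the last fatty acid, read 13.25, 13.59 and 13.31 in controls and 12.94, 13.25 and 13.23 in deficient arrays. Deficient replicate 2 was level with the lowest control and the others lay below it, which gave a log2 change of -0.24 ± 0.18 (SE, limma adjusted p = 0.512, 95% interval -0.66 to 0.18). It was -0.14 without deficient replicate 1 and also without control replicate 2. Its other probe set, 1445229_at, gave -0.43 ± 0.35 (SE). The probe set standing for Dgat1 is of a design that can match several transcripts.

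By mean, the particle assembly genes were close to level. Mttp encodes the microsomal transfer protein that loads lipid onto apolipoprotein B, and read 13.70, 13.97 and 14.15 in controls and 13.63, 14.07 and 14.07 in deficient arrays. Its log2 change of -0.02 ± 0.20 (SE, limma adjusted p = 0.971) had a 95% interval from -0.50 to 0.47, so changes within that span are not told apart from none. The sign is not settled: it was 0.13 without deficient replicate 1 and 0.06 with arrays centred on their medians, and the second probe set, 1419399_at, gave 0.26 ± 0.19 (SE). Apob, the structural protein of the chylomicron, read 14.56, 14.81 and 14.95 in controls and 14.75, 15.10 and 14.86 in deficient arrays. The groups overlapped widely, with a log2 change of 0.13 ± 0.18 (SE, limma adjusted p = 0.733, 95% interval -0.30 to 0.56). The change was 0.02 without control replicate 1 and 0.03 without deficient replicate 2. Its second probe set, 1457554_at, had the opposite sign, at -0.11 ± 0.28 (SE).

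The 3 apolipoproteins of the particle surface come from neighbouring genes of 1 cluster. By mean, Apoa1 and Apoa4 were higher and Apoc3 lower. None of them was called, so whether their directions differ is not settled. Apoa1, the main protein of high-density lipoprotein and also a chylomicron component, read 15.57, 15.84 and 15.67 in controls and 16.06, 15.79 and 15.76 in deficient arrays. Deficient replicate 1 was the highest array, opposite to its place for Cd36, and there Apoa1 held the highest value of the table. The log2 change was 0.17 ± 0.17 (SE, limma adjusted p = 0.615, 95% interval -0.23 to 0.57), and the other 3 Apoa1 probe sets gave 0.19 to 0.23. Those other 3 are of a design that can match related sequences. Apoa1 was at 0.08 without deficient replicate 1. Apoa4, an apolipoprotein induced by fat feeding, read 14.59, 15.28 and 14.81 in controls and 15.06, 15.07 and 14.87 in deficient arrays. Controls spanned 0.69 and deficient arrays 0.20, so all deficient arrays lay inside the control range (log2 change 0.10 ± 0.21, SE, limma adjusted p = 0.829, 95% interval -0.41 to 0.61). Without control replicate 1 the change was -0.05.

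Apoc3, an apolipoprotein that slows lipolysis of triglyceride-rich particles, was lower by mean. It read 13.44, 14.07 and 13.67 in controls and 12.61, 13.21 and 13.45 in deficient arrays. Deficient replicate 3 lay level with control replicate 1 and the other deficient arrays below all controls. The log2 change was -0.63 ± 0.27 (SE), or 1.55-fold lower, with a limma adjusted p of 0.303 and a 95% interval from -1.28 to 0.02. It was -0.40 without deficient replicate 1. Within each array, the difference of Apoc3 from Apoa1 cancels whatever shifts both genes alike. It still holds Apoa1's own change, and Apoa1 was highest in deficient replicate 1. Set to 0 at the control mean, that difference was -0.17, 0.20 and -0.03 in controls and -1.48, -0.62 and -0.34 in deficient arrays, a mean of -0.81 ± 0.59 (SD, n = 3) in the latter. The same difference from Apoa4 was 0.01, -0.04 and 0.03 in controls and -1.27, -0.69 and -0.25 in deficient arrays. By contrast Apoa4 minus Apoa1 overlapped between groups, at -0.18 to 0.24 in controls and -0.20 to 0.07 in deficient arrays. Such a separation was not particular to Apoc3. Npc1l1 minus Apob was at -0.09 to 0.06 in controls and -1.08 to -0.34 in deficient arrays. Cd36 minus Fabp1 was at -0.25 to 0.16 in controls and -3.63 to -0.78 in deficient arrays. Dgat1 minus Mogat2 and Mttp minus Apob overlapped between groups. These pairs were chosen after the values were seen and carry no test; with 3 arrays against 3 an exact permutation test cannot give a two-sided p below 0.10.

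**Figure D3:**
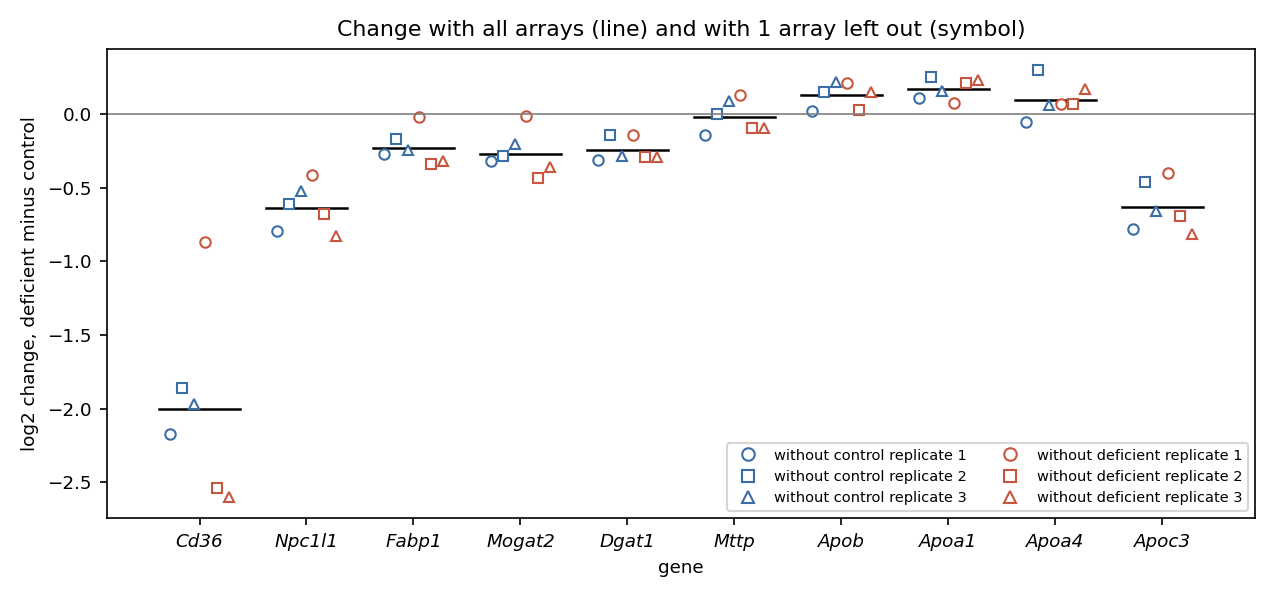
Log2 change, deficient minus control, for each of the 10 genes with all 6 arrays (black line) and with 1 array left out (open symbols, named by the array left out). Cd36 moves from -2.003 to -0.87 without deficient replicate 1, while Apoc3 and Npc1l1 stay between -0.83 and -0.40 in all 6 fits.

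Averaged over the 10 genes, deficient replicate 1 was the lowest array. Relative to the control mean, the 10 genes averaged -0.22, 0.16 and 0.06 in controls and -0.81, -0.14 and -0.13 in deficient replicates 1 to 3. Without Cd36 the averages of the deficient arrays were -0.43, -0.05 and -0.06, and control replicate 1, at -0.20, lay below deficient replicates 2 and 3. For Apoa4, Apob, Mttp and Dgat1 the controls spanned a wider range than the deficient arrays. A list of villus enterocyte markers had nearly the same profile as the 10 genes with Cd36 included. Its 19 tested members averaged -0.36, 0.23 and 0.14 in controls and -0.82, -0.09 and -0.13 in deficient arrays, and 0 were called by limma (1 lower at an unadjusted p under 0.05). Lct, the lactase of the brush border, was the member with the smallest p: it read 14.36, 14.66 and 14.46 in controls and 12.67, 13.92 and 14.06 in deficient arrays, a log2 change of -0.94 with a limma adjusted p of 0.273, and -0.51 without deficient replicate 1. The part of fewer mature enterocytes in the values of the 10 genes was not tested. The epithelial list went the other way in deficient replicate 1, at 0.32, with 0 of 13 called by limma (2 higher at an unadjusted p under 0.05) and Tspan8, a tetraspanin, at 0.44.

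Levels of the gut segment marker lists also varied between arrays. Control replicate 2, the highest array for 5 of the 10 genes, had the highest level of the proximal list, 0.61, and the lowest of the ileum list, -0.97, relative to the control means. In deficient replicates 1 to 3 the proximal list stood at 0.00, -0.19 and 0.42, the ileum list at 0.20, 0.16 and -0.13, and the colon list at 0.76, -0.70 and -0.01. The proximal and colon lists had 0 members called by limma, of 12 and 9 tested; at an unadjusted p under 0.05 there were 2 lower and 1 higher in the first and 0 in the second. Cybrd1, the duodenal ferric reductase, was at 3.21 (limma adjusted p = 0.170), and Cyp2c55, a colonic cytochrome P450, at -0.62, which ran from -1.02 without deficient replicate 1 to -0.15 without deficient replicate 2. In the ileum list 1 of 9 was called, Cubn, the cubilin receptor for vitamin B12, at -1.25 with a limma adjusted p of 0.0237, a call that held in 1 of the 6 fits that left out 1 array. In the crypt and proliferation list 0 of 13 were called by limma (1 higher at an unadjusted p under 0.05). Of the 13, 12 had higher means, beside 4041 of all 8893 genes tested, with a list median of 0.90. Rrm2, a ribonucleotide reductase subunit, was at 0.90 (limma adjusted p = 0.162), and the list level was lowest in control replicate 2. The part of gut segment and of crypt cells in the values of the 10 genes was not tested.

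**Figure D4:**
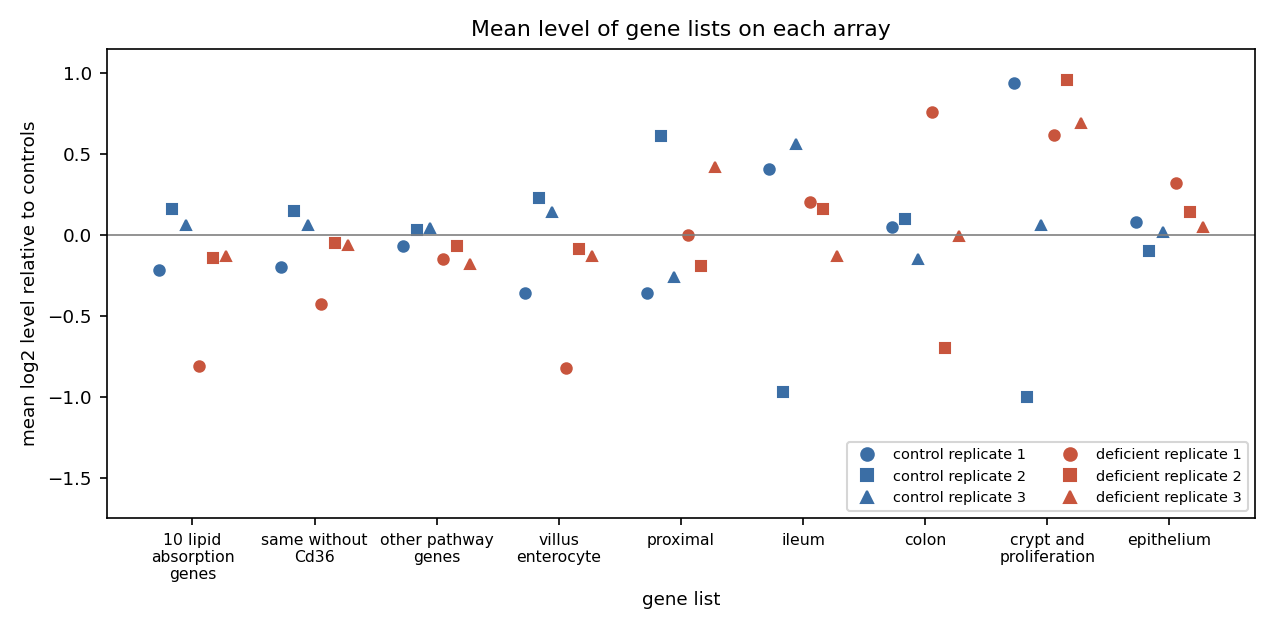
Mean log2 level of each gene list on each array, relative to the mean of the 3 controls (symbols as in the plot of the 10 genes). The 10 genes and the villus enterocyte list are both lowest in deficient replicate 1, at -0.81 and -0.82, while the other pathway genes stay between -0.18 and 0.04 on all arrays. Without Cd36, the mean of the lipid absorption genes in deficient replicate 1 is -0.43.

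Other genes of the absorption pathway, 89 on 5 fixed lists with 76 tested, changed about as often as genes in general: 1 was called (2.09% of all genes tested were), and the median was -0.03. By mean 42 were lower and 34 higher. Groups did not overlap for 10 lower and 9 higher genes, where 16.7% and 9.00% of all genes tested did so.

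Fatty acid uptake and activation had 0 of 9 genes called by limma and 1 lower at an unadjusted p under 0.05. That was Slc27a2, a fatty acid transport protein and very long chain acyl-CoA synthetase, which read 11.78, 12.46 and 12.05 in controls and 9.52, 10.85 and 11.32 in deficient arrays (log2 change -1.53 ± 0.46, SE, limma adjusted p = 0.185). As for Cd36, all deficient arrays lay below all controls, as they did for 16.7% of all genes tested, and deficient replicate 1 was lowest. It was -1.01 without deficient replicate 1. Acsl4, an acyl-CoA synthetase, was at -0.54, and at -0.17 without deficient replicate 2. Fabp2, the intestinal-type counterpart of Fabp1, was at 0.13, and Slc27a4, a further transport protein, at 0.05. Both were named after their values were seen. All deficient arrays of Fabp2 lay above all controls, as they did for 9.00% of all genes tested.

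Triglyceride and phospholipid synthesis had 0 of 14 genes called by limma, 2 lower and 1 higher at an unadjusted p under 0.05. Cds1, which makes CDP-diacylglycerol, was at -0.64 (limma adjusted p = 0.260), at -0.39 without deficient replicate 1 and at -0.28 as the mean of its probe sets, and Agpat2, an acyltransferase of phosphatidic acid synthesis, at 0.49 (limma adjusted p = 0.272). Assembly and export from the endoplasmic reticulum had 0 of 22 called by limma, 1 lower and 2 higher at an unadjusted p under 0.05. Svip, a small inhibitor of the p97 pathway, was at -1.62 (limma adjusted p = 0.0666), and Tmem41b, a lipid scramblase of that membrane, at 0.73 (limma adjusted p = 0.118), or 0.15 as the mean of its probe sets. Svip passed without deficient replicate 3, at -1.89 (limma adjusted p = 0.0394). Sar1b, the coat GTPase needed for chylomicron exit, was named after its values were seen and stood at -0.10. Groups did not overlap for Cds1 and Svip, which were lower, nor for Agpat2 and Tmem41b, which were higher.

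Sterol handling had 0 of 13 genes called by limma, 1 lower and 1 higher at an unadjusted p under 0.05. Abcg8, which with Abcg5 returns sterols to the gut lumen, read 7.16, 7.74 and 7.23 in controls and 4.84, 6.74 and 6.65 in deficient arrays. Its deficient arrays lay below all controls, with replicate 1 under the level 5 (log2 change -1.30 ± 0.51, SE, limma adjusted p = 0.274), and the change was -0.68 without that array. Abcg5, named after its values were seen, was at -0.51. Anxa2, an annexin tied to cholesterol uptake, was at 0.76 (limma adjusted p = 0.156), or 0.28 as the mean of its probe sets. In the probe set standing for Anxa2, all deficient arrays lay above all controls.

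Among 18 regulators, Ppara was the 1 gene called, and 3 were lower at an unadjusted p under 0.05. This nuclear receptor binds fatty acids and drives genes of their uptake and oxidation. It read 9.24, 9.32 and 9.77 in controls and 8.21, 8.48 and 8.32 in deficient arrays. The deficient arrays lay close together and below all controls, unlike those of Cd36, and the log2 change was -1.11 (limma adjusted p = 0.0417). It passed in 0 of the 6 fits that left out 1 array, with limma adjusted p from 0.0869 to 0.130. Ppargc1a, a coactivator of that receptor named after its values were seen, read 10.17, 10.66 and 10.24 in controls and 8.12, 8.61 and 9.42 in deficient arrays. All deficient arrays lay below all controls, and its log2 change was -1.64 ± 0.34 (SE, limma adjusted p = 0.0761), passing without deficient replicate 3 at -1.99 (limma adjusted p = 0.0183).

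**Figure D5:**
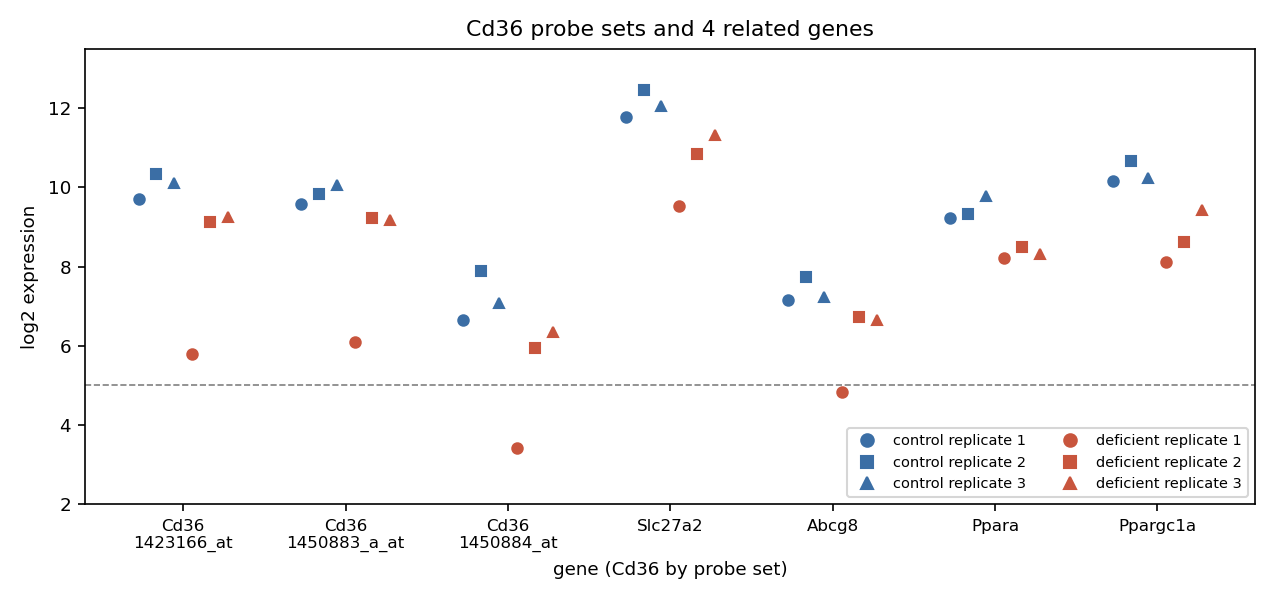
Log2 expression on each array for the 3 Cd36 probe sets and for Slc27a2, Abcg8, Ppara and Ppargc1a; the dashed line is the level 5 used as a filter, and heights are not comparable between genes. In all 7 columns every deficient array lies below every control, and deficient replicate 1 stands apart in Cd36 and Abcg8 but not in Ppara. The 3 Cd36 columns are 1 gene, and pathway genes that were higher are not drawn. Of the 76 pathway genes tested, groups did not overlap for 10 lower and 9 higher. Over all genes tested the shares were 16.7% and 9.00%.

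Each tested gene was centred on its mean over the 6 arrays, and likeness was the root mean square difference over these 6 arrays. The mean profile of the 10 genes was -0.03, 0.34 and 0.24 in controls and -0.63, 0.04 and 0.05 in deficient arrays. Cd36 weighs heavily in it: relative to the controls, deficient replicate 1 averaged -0.81 with Cd36 and -0.43 without. The 5 other genes nearest to this mean profile were Elmo3, Golt1a, Slc25a15, Psg23 and Sdf4. Their differences were 0.059 to 0.068 and their log2 changes -0.41 to -0.34, and none is on a pathway list. Without deficient replicate 1 their log2 changes were -0.21 to -0.12. For Cd36 the nearest gene was Cym, which encodes chymosin, at 0.210. It read 7.34, 8.09 and 7.80 in controls and 2.94, 6.88 and 6.97 in deficient arrays, and its log2 change of -2.15 was -0.82 without deficient replicate 1. Mogat2 was nearest to Tm6sf2, a lipoprotein export factor of the assembly list, at 0.037; the log2 change of Tm6sf2 was -0.32, and -0.06 without deficient replicate 1. The others were nearest to genes outside the lists: Npc1l1 to Snx25 (0.029), Dgat1 to Sucla2 (0.032), Apoa1 to Cd151 (0.035) and Fabp1 to Sephs1 (0.042). Apob was nearest to Eaf1 (0.044), Apoa4 to Tor1a (0.052), Mttp to Amn1 (0.059) and Apoc3 to Tbc1d24 (0.063). Likeness over 6 arrays is a description, and genes with little spread find near neighbours more easily.

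Lists of cell types that such preparations can hold gave the following. In the lymphocyte list, Il2rb, a receptor subunit for interleukin-2 and interleukin-15, and Coro1a, a leukocyte actin regulator, fell, with log2 changes of -3.82 and -2.82 (limma adjusted p = 0.00126 and 0.00158); Il2rb was at -2.05 as the mean of its probe sets. In the myeloid list, Fcer1g and Tyrobp, signalling adaptors, fell, with log2 changes of -2.45 and -2.95 (limma adjusted p = 0.00227 and 0.00464). Without a filter on low values Tyrobp no longer passed (limma adjusted p = 0.0568). All 9 tested myeloid genes were lower by mean. Of those not called, Cd14, Lyz2 and Csf1r changed least, at -0.31, -0.41 and -0.64, and Cybb most, at -2.19. These uncalled genes were named after their values were seen. The list of endothelium, stroma and muscle had 0 of 5 tested genes called by limma, with 3 lower at an unadjusted p under 0.05 and Vim at -1.07. Hepatocyte, pancreatic acinar and fat cell lists had 2, 2 and 1 genes tested and 0 called, with 0 at an unadjusted p under 0.05. Serpina1c, Clps and Cidec stood at -1.74, -1.09 and 0.26. These values rest on single arrays: Serpina1c was at -0.64 without deficient replicate 1, Clps at -0.34 without control replicate 2, and Cidec at -0.09 without control replicate 1. Alb, the hepatocyte albumin gene, named after its values were seen, read between 2.31 and 2.39 on all arrays.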

How the data were processed

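Total RNA was measured on 1 Affymetrix array per biological replicate, 3 per group. The deposited values are log2 expression values made by the authors, 1 per probe set and array; Partek 6.5 and GCRMA appear in the submitters' processing notes with no step assigned, and the log2 scale was taken from the values (0.42 to 16.35). The deposited table is already normalized, and GCRMA holds unexpressed probe sets near a low floor, so changes of dim genes depend on its background model. Precision is limited by the 3 arrays per group; the labels call replicates biological without naming animals.

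Of 45101 probe sets, 64 controls were left out; 34945 had 1 symbol, 932 several and 9160 none. The symbol table matched 34741 by Entrez ID to assembly GRCm38.p6 and renamed 0. The probe set with the highest mean stood for a gene. Genes above 5 on at least 3 arrays were tested with limma 3.58.1 in R 4.3.3 (lmFit, eBayes, no covariate; Benjamini-Hochberg). The code was tested on simulated data. The members and lists were chosen with earlier results of these data known. Of 245 list genes, 226 were on the array under 1 symbol; the others were not analysed here.

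Named genes were the 10 members; per pathway list up to 4 called genes or else the 2 with the smallest p; per other list up to 2 called or else 1; and the nearest genes by profile. Any other gene was named after its values were seen, as said beside it; Vil1 and Epcam stand as well-known examples of the epithelial list. Alternatives changed moderation, array weights, filter, normalization, probe set choice and a replicate block, and left out each array.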

Additional observations from a re-analysis of the deposited data

How the results depend on the processing

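Of the 10 lipid absorption genes, 0 were called under any of the 16 alternatives, with a lowest limma adjusted p of 0.17, and 0 of their 20 probe sets were called without the filter or with the replicate block. Of 159 values of single members under an alternative, 154 kept their direction. The exceptions were Mttp (0.06 with median centred arrays, 0.12 with the mean of its probe sets, 0.09 without control replicate 3 and 0.13 without deficient replicate 1) and Apoa4 (-0.05 without control replicate 1). With 1 array left out, Mttp ran from -0.14 to 0.13 and Apoa4 from -0.05 to 0.30. The median of the 10 genes was -0.01 without deficient replicate 1 and otherwise ran from -0.31 to -0.11. Among other named genes, Amn1 turned to 0.02 with median centred arrays, 0.37 with the mean of probe sets, 0.07 without control replicate 3 and 0.06 without deficient replicate 1. Sephs1 turned to 0.15 with plain _at probe sets only, and without control replicate 1 Cidec turned to -0.09 and Tor1a to -0.06. With 1 array left out, Amn1 ran from -0.17 to 0.07, Cidec from -0.09 to 0.53 and Tor1a from -0.06 to 0.27. The cause was not tested.

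The count of pathway genes called was 1 with all arrays. It was 2 with array weights (Ppara and Ppargc1a), 0 without a filter, 0 with median centred arrays, 0 with the mean of probe sets, 0 with the replicate block, and 0 to 2 when 1 array was left out (2, Ppargc1a and Svip, without deficient replicate 3). Over all genes, 186 were called, against 293 with array weights, 85 without a filter, where more genes were tested, 117 with the mean of probe sets, 141 with the replicate block, and 93 to 239 when 1 array was left out. Replicate numbers are shared between groups, and correlations of the deviations of same-numbered replicates were 0.05, -0.29 and 0.00. Whether same-numbered arrays belong together is not stated. Correlations of deviations within so few arrays per group cannot decide it.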
